A study of Mus musculus with 1376 samples.

Results

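The 9 genes described here code for receptors of extracellular purine nucleotides and adenosine and for ion channels linked to membrane depolarisation. They were taken as a list by name: P2rx1, P2rx4, P2ry1, P2ry14, Adora1, Adora2a, Trpc6, Trpm4 and Ano1. All 9 were found among the 46517 genes of the table, and all 9 passed the filter on low counts. The counts come from 1376 single cells of mouse lung. All mice carry the strain label ACTA2GFP:CSPG4dsRED, which names a GFP reporter for smooth muscle actin and a dsRED reporter for the proteoglycan NG2, and there is no treated or mutant group. The mice are male mouse 1 (on 2 plates), male mouse 2 and female mouse 1 (on 1 plate each), with an age of 8 to 30 weeks in the sample labels. The series description gives male mice of 8 to 21 weeks, and the dissociation protocol names the heart, while the tissue label of every cell is lung. Female mouse 1 is the only female, so its sex, plate and animal cannot be told apart. Each cell was sorted into a plate well and read by Smart-Seq2, a full-length cDNA method without molecular identifiers. The labels do not say which cells the sort let through.

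ATP and other nucleotides released from nerves and cells act on P2X receptors, which are ion channels opened by ATP, and on P2Y receptors, which couple to G proteins. Enzymes on the cell surface break nucleotides down to adenosine, which acts on the adenosine receptors. In smooth muscle, inward cation current through P2X and TRP channels and outward movement of chloride through calcium-activated channels depolarise the membrane, and depolarisation opens voltage-gated calcium channels that feed contraction.

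The classes compared were airway smooth muscle cell (SMC)-like, pericyte-like, alveolar myofibroblast-like, adventitial fibroblast-like, alveolar fibroblast-like and vascular SMC-like cells. Clusters took these names from marker lists, and each of the 9 genes lay outside the gene set that built the classes it was measured in. Each of the 6 classes had at least 10 cells in every mouse. Vascular SMC-like cells made up 32.3% and 34.7% of all cells in the clusterings on the separate gene sets, alveolar fibroblast-like cells 11.5% and 10.6%, and each other class 5.52% to 8.07%. Cells of clusters without a class name, which entered no comparison, made up 19.6% and 19.3%. In the clustering behind P2rx1, P2ry14, Trpc6, Trpm4 and Ano1, 11 of the 12 vascular SMC markers had counts in vascular SMC-like cells of each mouse, and Rergl was at 0. All 10 airway SMC markers had counts in airway SMC-like cells, and 11 or 12 of the 12 pericyte markers in pericyte-like cells, where Lamc3 was at 0 in male mouse 2. The alveolar myofibroblast-like and alveolar fibroblast-like cells had counts of all 10 of their markers, and adventitial fibroblast-like cells of 9 or 10 of 10, with Ccl11 at 0 in male mouse 1. The same markers named the clusters, and sums over many cells can hold a few counts of most genes. Macrophage and endothelial markers had counts in some of these sums too, as given below, so the presence of counts does not test the names. Endothelial-like cells came almost only from female mouse 1 and macrophage-like cells mostly from male mouse 1, so these are given as values without a test. The median cell held 230688 counts, with a range of 50835 to 1074103. Levels are in CPM, counts relative to the library total, of the counts summed over a class in a mouse and scaled by TMM, as mean ± SD over n = 3 mice unless stated. Where 3 values are listed for a class, the first is from male mouse 1, the second from male mouse 2 and the third from female mouse 1. In such sums, fewer expressing cells and less RNA per cell cannot be told apart. Tests used edgeR's quasi-likelihood test with the mouse as a block, with Benjamini-Hochberg adjustment over 16336 genes, and a gene was called at an adjusted p under 0.05. Fold changes are log2 values from that fit, with the standard error.

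Across the 6 comparisons of classes, 16 of the 54 tests on the 9 genes were called, and 9 of these 16 calls held with each mouse left out in turn. The 9 genes were chosen with earlier results of these data known. Their calls beside the share of all genes are thus a description, not a test of the group. In airway SMC-like over vascular SMC-like cells, 1 of the 9 genes was higher and 1 lower, against 1.21% and 0.918% of all genes tested. In pericyte-like over vascular SMC-like cells, 1 was higher and 1 lower, against 1.69% and 1.27% of all genes. In alveolar myofibroblast-like over vascular SMC-like cells, 1 was higher and 2 were lower, against 1.88% and 1.73% of all genes. In alveolar fibroblast-like over vascular SMC-like cells, 1 was higher and 3 were lower, against 3.56% and 2.39% of all genes. In pericyte-like over alveolar fibroblast-like cells, 4 were higher and 0 lower, against 1.76% and 2.94% of all genes. In alveolar myofibroblast-like over alveolar fibroblast-like cells, 1 was higher and 0 were lower, against 0.839% and 1.44% of all genes. The median log2 fold change of the 9 genes ran from -1.76 to 1.08 over these comparisons, while that of all genes ran from -0.22 to -0.07. Where the edgeR test called 0 lower, 1 gene in pericyte-like over alveolar fibroblast-like cells and 3 in alveolar myofibroblast-like over alveolar fibroblast-like cells were lower at an unadjusted p under 0.05, and DESeq2's Wald test called the same numbers.

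**Figure D1:**
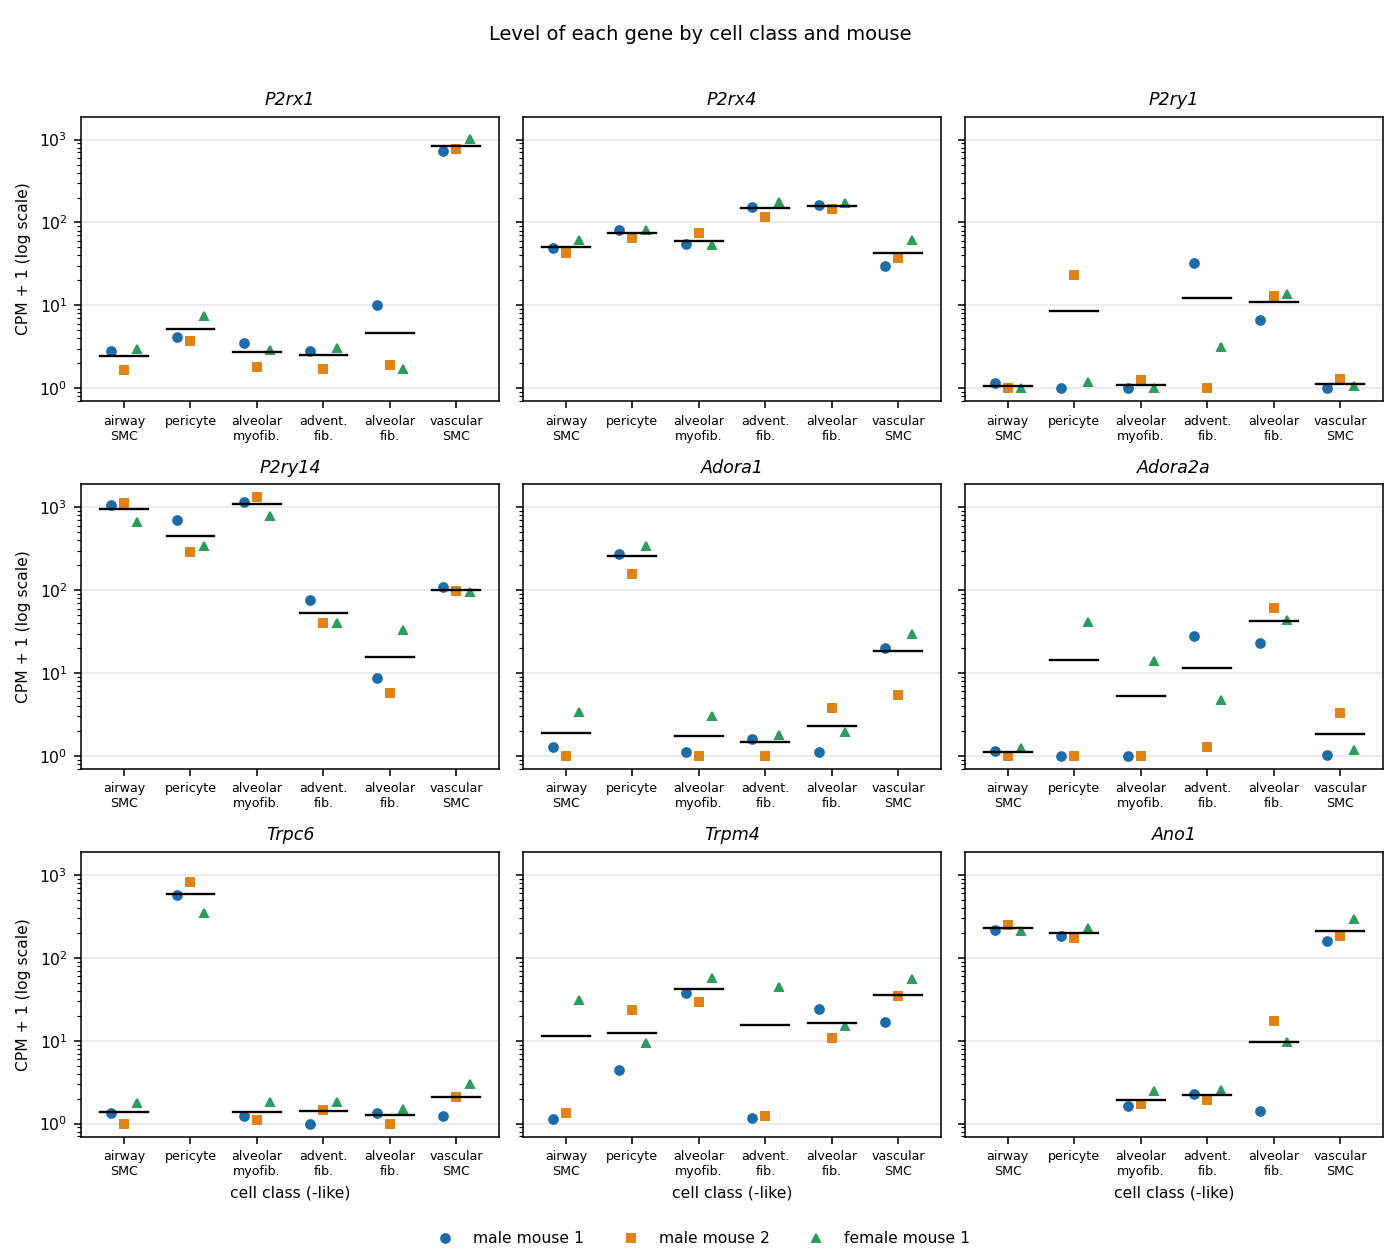
Level of each of the 9 genes (CPM + 1, log axis) in 6 cell classes; each point is 1 mouse, by colour and shape, and the line is the mean of the 3 mice. P2rx1 stands at 723.8 to 1014 CPM in vascular SMC-like cells and at no more than 9.22 CPM in the other classes, and Trpc6 stands at 344.9 to 829.5 CPM in pericyte-like cells and at no more than 2.02 CPM in the others.

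P2rx1 codes for the P2X1 receptor, the ATP-gated cation channel of vascular smooth muscle and platelets. In GRCm38 the gene lies on chromosome 11, plus strand, from base 72999103 to 73015200. Its counts marked vascular SMC-like cells off from airway SMC-like cells, pericyte-like cells and all fibroblast-like classes. Its promoter window of 300 bases, at chr11:72998895-72999194 of GRCm38.p6 from RefSeq, is shown because P2rx1 had the highest level per kilobase of the 9 genes in any class; capitals mark a match to TGGGAA, the core of the RBPJ motif.

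P2rx1: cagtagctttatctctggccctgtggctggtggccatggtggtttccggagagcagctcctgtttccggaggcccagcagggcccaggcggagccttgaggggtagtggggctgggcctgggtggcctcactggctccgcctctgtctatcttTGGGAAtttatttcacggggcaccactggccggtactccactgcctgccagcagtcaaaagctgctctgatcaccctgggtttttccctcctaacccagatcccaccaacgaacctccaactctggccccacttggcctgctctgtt

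The sequence was searched on both strands for TGGGAA, for CATTCC, a TEAD motif, and for the CArG box of serum response factor. Of 32851 RefSeq promoter windows of that length, 25.6% held the RBPJ core, 14.7% the TEAD motif and 1.63% a CArG box. The P2rx1 window held 1 RBPJ core and neither of the others, so the match is one that a large share of promoters has.

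In airway SMC-like cells P2rx1 had 1.81, 0.67 and 1.94 CPM, against 723.8, 780.0 and 1014 CPM in vascular SMC-like cells. The groups did not overlap, and all 3 mice showed the same direction. The log2 fold change was -9.35 ± 0.91 (SE; adjusted p = 8.24e-05, edgeR). In pericyte-like cells P2rx1 averaged 4.14 ± 2.09 CPM, against 839.3 ± 154.01 CPM in vascular SMC-like cells, a log2 fold change of -7.77 ± 0.85 (adjusted p = 0.000142, edgeR). Alveolar myofibroblast-like cells had 1.75 ± 0.86 CPM, a log2 fold change of -9.14 ± 0.90 against the same vascular SMC-like cells (adjusted p = 3.43e-05, edgeR). Alveolar fibroblast-like cells had 3.61 ± 4.86 CPM, with a log2 fold change of -8.31 ± 0.87 against vascular SMC-like cells (adjusted p = 3.60e-05, edgeR), and 1 cell of male mouse 1 held 76.4% of their P2rx1 counts. These 4 comparisons share the vascular SMC-like sums. Each of these 4 calls held without any 1 mouse. In the order of levels, the 5 other classes overlapped from each to the next.

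In single cells, 91.7% of vascular SMC-like cells had a P2rx1 count and 74.1% reached 100 CPM. A count was also present in 56.2% of pericyte-like cells, 37.8% of airway SMC-like cells and 27.3% of macrophage-like cells. The airway SMC-like cells that had one held a median of 1 count and none reached 100 CPM. Macrophage-like cells of male mouse 1, 60 of 66 cells, held P2rx1 at 39.7 CPM, above every value of the 5 compared classes other than vascular SMC-like cells. After each cell was thinned to 50000 counts, the share with a P2rx1 count was 25.7% in pericyte-like cells, 4.44% in airway SMC-like cells, 10.6% in macrophage-like cells and 83.1% in vascular SMC-like cells. Median depths were 197160 counts per cell in pericyte-like cells, 254538 in airway SMC-like cells, 241016 in macrophage-like cells and 230950.5 in vascular SMC-like cells. Counts without molecular identifiers are not independent molecules, so such shares describe reads only.

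**Figure D2:**
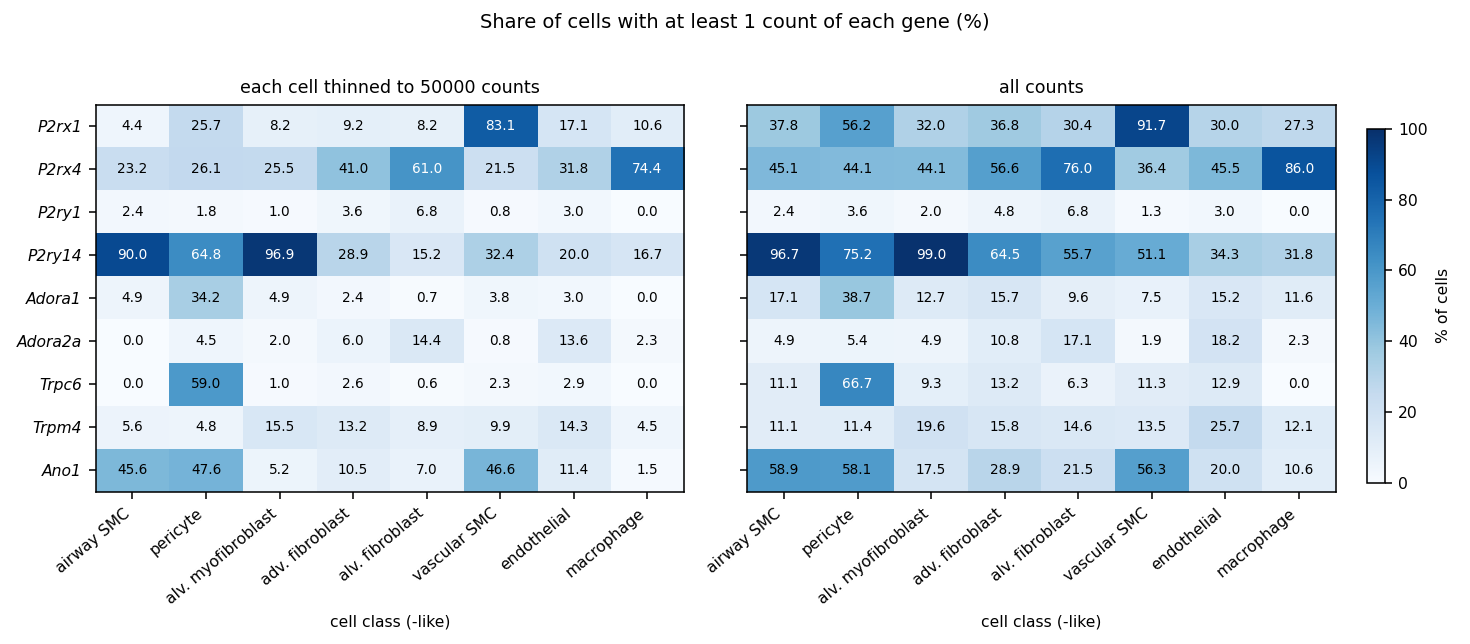
Share of cells (%) with at least 1 count of each gene by cell class, after each cell was thinned to 50000 counts (left) and with all counts (right). Thinned shares of P2ry14 reach 90% in airway SMC-like cells and 96.9% in alveolar myofibroblast-like cells, and that of Trpc6 is 59.05% in pericyte-like cells and at most 2.86% in the other 7 classes shown.

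Vascular SMC-like cells fell into 2 clusters, one led by Stac, Grip2 and P2rx1 itself and one by Sfrp2, Uchl1 and Efhd1. Summed over the cells of each mouse, P2rx1 stood at 976.8, 983.3 and 1162 CPM in the Stac cluster, against 245.2, 400.9 and 335.8 CPM in the Sfrp2 cluster. The clusters did not overlap, and the Stac cluster was higher in 3 of 3 mice. These clusters were built on the other gene set, but genes vary together, so no test is given. P2ry14 was likewise higher in the Stac cluster in each mouse, at 148.9, 121.2 and 112.5 CPM against 24.6, 52.3 and 17.9 CPM in the Sfrp2 cluster. Ano1 overlapped between the clusters, at 119.3 to 277.1 CPM in the Stac cluster and 108.9 to 362.3 CPM in the Sfrp2 cluster.

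P2rx4 codes for the P2X4 receptor, an ATP-gated cation channel known from macrophages, microglia, endothelium and epithelium. Its place is chromosome 5, plus strand, from base 122707544 to 122729738. Among the 6 classes compared, it had counts in every class of every mouse, with class means of 41.7 to 159.3 CPM. In alveolar fibroblast-like cells it had 162.6, 145.2 and 170.1 CPM, against 28.8, 35.9 and 60.6 CPM in vascular SMC-like cells. All 3 values of alveolar fibroblast-like cells lay above the others, with a log2 fold change of 1.97 ± 0.37 (adjusted p = 0.00449, edgeR). The call was lost without male mouse 1 (adjusted p = 0.20), without male mouse 2 (0.060) and without female mouse 1 (0.081), within 1.96e-10 to 0.20 over all alternatives. The 9 macrophage markers summed to 62.1 to 111.6 CPM in alveolar fibroblast-like cells and 13.5 to 44.6 CPM in vascular SMC-like cells. In alveolar fibroblast-like cells all 9 had counts in male mouse 1, Ptprc was at 0 in male mouse 2 and C1qc in female mouse 1. In vascular SMC-like cells Ptprc was at 0 in male mouse 2 and C1qb in female mouse 1. Their part in the P2rx4 difference was not tested. Macrophage-like cells of male mouse 1 had 393.3 CPM of P2rx4, and 86.05% of all macrophage-like cells had a count.

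In adventitial fibroblast-like cells P2rx4 averaged 147.2 ± 30.5 CPM, which overlapped alveolar fibroblast-like cells and lay above the next class, pericyte-like cells with 74.7 ± 9.34 CPM. Pericyte-like, alveolar myofibroblast-like, airway SMC-like and vascular SMC-like cells overlapped from each to the next. Pericyte-like cells lay above vascular SMC-like cells without overlap, but the log2 fold change of 0.87 ± 0.36 was not called (adjusted p = 0.25, edgeR, and 0.0125 to 0.79 over all alternatives). They lay below alveolar fibroblast-like cells without overlap, by -1.09 ± 0.36, also not called (adjusted p = 0.12, edgeR, and 0.00506 to 0.45 over all alternatives). In alveolar myofibroblast-like cells P2rx4 stood at 59.5 ± 11.9 CPM, against 159.3 ± 12.8 CPM in alveolar fibroblast-like cells, and this log2 fold change of -1.40 ± 0.37 missed the threshold (adjusted p = 0.067, edgeR; 8.35e-05 with DESeq2's Wald test and up to 0.53 over all alternatives). In single cells, 45.9% of alveolar fibroblast-like cells and 9.41% of vascular SMC-like cells reached 100 CPM.

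P2ry14 codes for the receptor of UDP-glucose and related UDP-sugars. Its place is chromosome 3, minus strand, from base 59113855 to 59153618, inside the span of the opposite-strand gene Med12l, with which it shares no exon bases. Per kilobase of exon it was the highest of the 9 genes in alveolar myofibroblast-like and airway SMC-like cells. In alveolar myofibroblast-like cells it had 1144, 1321 and 786.4 CPM, against 7.78, 4.75 and 31.8 CPM in alveolar fibroblast-like cells. The ranges lay far apart in every mouse, with a log2 fold change of 6.24 ± 0.69 (adjusted p = 0.000144, edgeR), which held without any 1 mouse. Against vascular SMC-like cells, with 107.5, 97.4 and 95.3 CPM, the same myofibroblast-like values gave a log2 fold change of 3.46 ± 0.60 (adjusted p = 0.00341, edgeR). Without male mouse 1 this adjusted p was 0.080, the highest over all alternatives, which began at 2.40e-07.

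Airway SMC-like cells had 1062, 1138 and 661.8 CPM of P2ry14, against the same 95.3 to 107.5 CPM in vascular SMC-like cells. The log2 fold change was 3.27 ± 0.59 (adjusted p = 0.00828, edgeR), and the call was lost without male mouse 1 (adjusted p = 0.15) and without male mouse 2 (0.089), within 1.30e-06 to 0.15 over all alternatives. The airway and vascular SMC-like classes thus differed in P2rx1 and P2ry14 in opposite directions. Pericyte-like cells had 709.5, 289.4 and 340.2 CPM of P2ry14, above every vascular SMC-like value, but the log2 fold change of 2.10 ± 0.57 missed the threshold (adjusted p = 0.064, edgeR; 0.048 with DESeq2 size factors, 0.025 without female mouse 1 and 0.00345 to 0.45 over all alternatives). Against alveolar fibroblast-like cells, with 14.8 ± 14.8 CPM, pericyte-like cells were higher by 4.88 ± 0.65 on the log2 scale (adjusted p = 0.000416, edgeR), in all 3 mice and without any 1 mouse. Alveolar fibroblast-like cells in turn were lower than vascular SMC-like cells, with a log2 fold change of -2.78 ± 0.60 (adjusted p = 0.0102, edgeR), and this call was lost without male mouse 1 (adjusted p = 0.19) and without male mouse 2 (0.12), within 0.000119 to 0.19 over all alternatives.

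The order of P2ry14 levels ran from alveolar myofibroblast-like over airway SMC-like to pericyte-like cells, each overlapping the next, and then to vascular SMC-like, adventitial fibroblast-like and alveolar fibroblast-like cells, each of which lay below the one before it with no overlap. In single cells 91.8% of alveolar myofibroblast-like cells, 85.6% of airway SMC-like cells, 47.6% of pericyte-like cells and 24.6% of vascular SMC-like cells reached 100 CPM. Of macrophage-like cells, 31.8% had a P2ry14 count, and in alveolar fibroblast-like cells 55.7% had one with a median of 2 counts in those cells, so the share with any count sets the classes apart less than the level does.

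P2ry1 codes for the P2Y1 receptor, which responds to ADP and takes part in platelet aggregation. On chromosome 3, plus strand, it runs from base 61002795 to 61008982, and it shares 992 exon bases with the antisense gene Gm37035, which cannot be told from it where strand is not given. It was the rarest of the 9 genes, with 1010 counts in 37 of the 1376 cells. It had 5.57, 11.9 and 12.6 CPM in alveolar fibroblast-like cells. In adventitial fibroblast-like cells it had 31.7, 0 and 2.17 CPM, and in pericyte-like cells 0, 22.1 and 0.18 CPM, where 1 cell held 93.8% of the counts. Vascular SMC-like cells gave 9 counts, airway SMC-like cells 2 and alveolar myofibroblast-like cells 2 in all. The edgeR test called it in 0 of the 6 comparisons, with an unadjusted p under 0.05 in 2, and DESeq2's Wald test called it in 2. Alveolar fibroblast-like over vascular SMC-like cells gave an unadjusted p of 0.0124 and an adjusted p of 0.14 with edgeR and an adjusted p of 0.00725 with DESeq2, and the adjusted p reached 0.58 over all alternatives. The other was alveolar myofibroblast-like over alveolar fibroblast-like cells (unadjusted p = 0.0106, adjusted p = 0.18 with edgeR and 0.00477 with DESeq2, up to 0.60 over all alternatives).

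Adora1 codes for the A1 adenosine receptor, which couples to inhibitory G proteins. On chromosome 1, minus strand, it runs from base 134199223 to 134235431 and shares 1162 exon bases with the opposite-strand gene Mybph, which had 892 counts in the whole table beside 11472 for Adora1, and reads in the shared bases cannot be assigned where strand is not given. Adora1 was highest in pericyte-like cells, at 272.3, 156.8 and 344.97 CPM. Alveolar fibroblast-like cells had 0.10, 2.82 and 0.94 CPM, and 1 cell held 77.4% of their counts. The log2 fold change of pericyte-like over alveolar fibroblast-like cells was 7.19 ± 1.53 (adjusted p = 0.0124, edgeR), and the call was lost without male mouse 1 (adjusted p = 0.18) and without female mouse 1 (0.12), within 1.43e-07 to 0.18 over all alternatives. Vascular SMC-like cells had 18.96, 4.48 and 28.4 CPM, below every pericyte-like value, but the log2 fold change of 4.11 ± 1.29 missed the threshold (adjusted p = 0.12, edgeR; 0.00656 with DESeq2's Wald test and up to 0.41 over all alternatives). Airway SMC-like, alveolar myofibroblast-like and adventitial fibroblast-like cells averaged 0.46 to 0.90 CPM. Alveolar myofibroblast-like cells lay below every vascular SMC-like value as well, and this log2 fold change of -5.12 ± 1.41 also missed the threshold (adjusted p = 0.063, edgeR; 0.00129 with DESeq2's Wald test and up to 0.38 over all alternatives).

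Within pericyte-like cells, Adora1 was almost all in 1 of 2 clusters. In the cluster led by Col8a1 it stood at 353.7, 417.5 and 481.7 CPM, against 4.19, 14.3 and 0.81 CPM in the cluster led by Adcy8 and Clstn2. The Col8a1 cluster had only 3 cells in male mouse 2. Of its cells, 55.2% had an Adora1 count, against 13.6% in the Clstn2 cluster and 11.6% in macrophage-like cells. The clusters did not overlap, and the direction was the same in 3 of 3 mice.

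**Figure D3:**
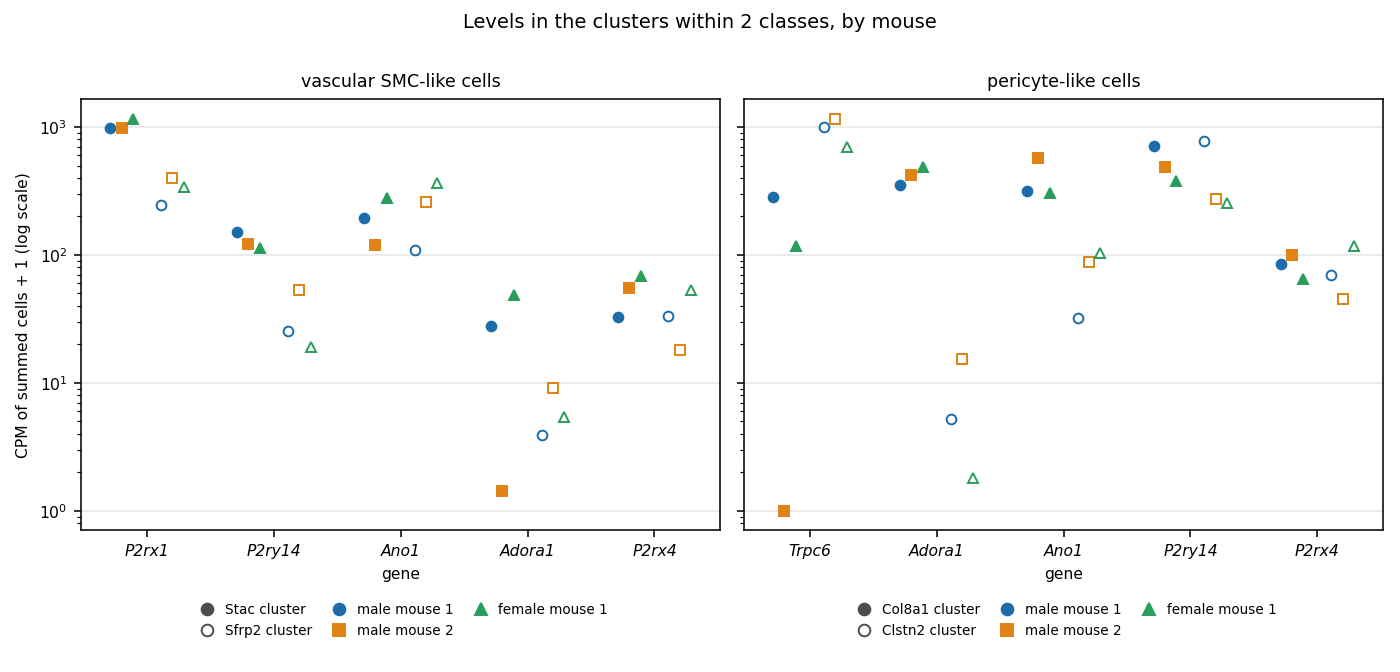
CPM + 1 (log axis) of 5 genes in the clusters within vascular SMC-like cells (left; filled Stac cluster, open Sfrp2 cluster) and pericyte-like cells (right; filled Col8a1 cluster, open Clstn2 cluster), each point 1 mouse. P2rx1 is higher in the Stac cluster, Adora1 and Ano1 are higher in the Col8a1 cluster and Trpc6 is higher in the Clstn2 cluster in each of the 3 mice. The Col8a1 cluster of male mouse 2 had only 3 cells for Adora1 and 2 for Ano1 and Trpc6.

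Adora2a codes for an adenosine receptor that couples to stimulatory G proteins. The gene is on chromosome 10, plus strand, from base 75316877 to 75334784. It had 22.2, 59.4 and 42.96 CPM in alveolar fibroblast-like cells, against 0.023, 2.32 and 0.19 CPM in vascular SMC-like cells. The ranges did not overlap, but the log2 fold change of 5.31 ± 2.71 was not called (unadjusted p = 0.0693, adjusted p = 0.42, edgeR; 0.14 with DESeq2's Wald test, 0.022 with no other class in the fit, where it was called, and up to 0.66 over all alternatives). The edgeR and DESeq2 tests each called Adora2a in 0 of the 6 comparisons, and 0 had an unadjusted p under 0.05 with edgeR. In pericyte-like cells it had 0, 0 and 40.6 CPM, so its counts there came from female mouse 1 alone. Endothelial-like cells of female mouse 1 had 32.98 CPM. The 8 endothelial markers, all with counts in each mouse, summed to 25.2 to 126.96 CPM in alveolar fibroblast-like cells and 52.1 to 118.9 CPM in vascular SMC-like cells. In single cells 17.1% of alveolar fibroblast-like cells and 18.2% of endothelial-like cells had a count, against 2.33% of macrophage-like cells and 1.88% of vascular SMC-like cells.

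Trpc6 codes for a calcium-permeable cation channel opened by diacylglycerol, known from vascular smooth muscle and kidney podocytes. The gene is on chromosome 9, plus strand, from base 8544142 to 8680741. In these lungs its counts were nearly confined to pericyte-like cells among the 6 classes, and vascular SMC-like cells had very few. Its promoter window, at chr9:8543892-8544191 of GRCm38.p6 from RefSeq, is shown beside that of P2rx1 because the genes had opposite patterns in vascular SMC-like and pericyte-like cells; capitals mark a CArG box.

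Trpc6: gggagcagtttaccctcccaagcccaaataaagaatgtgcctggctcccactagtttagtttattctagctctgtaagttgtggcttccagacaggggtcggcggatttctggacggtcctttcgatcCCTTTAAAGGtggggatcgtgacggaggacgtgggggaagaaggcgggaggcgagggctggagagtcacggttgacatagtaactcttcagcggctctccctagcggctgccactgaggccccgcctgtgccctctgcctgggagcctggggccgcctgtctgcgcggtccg

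The Trpc6 window held 1 CArG box and neither the RBPJ core nor the TEAD motif. A match is a description of the letters, not a site in use.

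Trpc6 had 574.04, 829.5 and 344.9 CPM in pericyte-like cells, against 0.23, 1.09 and 2.02 CPM in vascular SMC-like cells. The groups were far apart in each mouse, with a log2 fold change of 9.50 ± 1.15 (adjusted p = 0.000381, edgeR). Against alveolar fibroblast-like cells, with 0.35, 0 and 0.49 CPM and 15 counts in all, pericyte-like cells were higher by 11.3 ± 1.24 on the log2 scale (adjusted p = 0.000104, edgeR). Both calls held without any 1 mouse. Airway SMC-like cells had 0.37 ± 0.38 CPM, alveolar myofibroblast-like cells 0.39 ± 0.37 CPM and adventitial fibroblast-like cells 0.42 ± 0.40 CPM, and all classes other than pericyte-like cells overlapped from each to the next in the order of levels. Trpc6 was the highest of the 9 genes per kilobase of exon in pericyte-like cells, at 115.04 ± 47.9 CPM per kilobase. The Osr2 and Chrdl1 cluster described in the closing section, when counted as vascular SMC-like, moved Trpc6 in alveolar fibroblast-like over vascular SMC-like cells past the threshold (log2 fold change -4.51, adjusted p = 0.00942, edgeR, the lowest over all alternatives), whereas without it the log2 fold change was -1.76 ± 0.95 (adjusted p = 0.47). It did the same in alveolar myofibroblast-like over vascular SMC-like cells (log2 fold change -4.05, adjusted p = 0.033, edgeR, the lowest over all alternatives), where the value without it was -1.42 (adjusted p = 0.62). Clustering at Leiden resolution 2 also moved both past the threshold (adjusted p = 0.0114 and 0.03999, edgeR).

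In the clustering that left Trpc6 out, the pericyte-like clusters were led by Adora1 and Col8a1 and by 9230104L09Rik and Clstn2. Summed over cells, the Col8a1 cluster had 281.9, 0 and 117.1 CPM, against 1007, 1146 and 691.7 CPM in the Clstn2 cluster. The value of 0 came from 2 cells. The Clstn2 cluster was thus higher for Trpc6 in 3 of 3 mice, the reverse of Adora1. By mouse, in the same order, 68.4%, 66.7% and 66.2% of pericyte-like cells had a Trpc6 count. Of 66 macrophage-like cells, 60 of them from male mouse 1, 0 had one, which allows a share of cells with a count of up to 5.44% (exact 95% interval, counting error only). In vascular SMC-like cells 11.3% had a count, with a median of 1 count in those cells. By mouse these shares were 6.53%, 7.43% and 45.1%, so the highest was that of female mouse 1. Among 97 cells called pericyte-like in both clusterings, 25 had counts of both Trpc6 and Adora1, 44 of Trpc6 only and 15 of Adora1 only.

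Trpm4 codes for a calcium-activated monovalent cation channel that passes sodium and not calcium. The gene is on chromosome 7, minus strand, from base 45302632 to 45333780. The edgeR test called Trpm4 in 0 of the 6 comparisons, with an unadjusted p under 0.05 in 0, and DESeq2's Wald test called it in 0. Alveolar myofibroblast-like cells had 36.8, 28.6 and 56.8 CPM, and vascular SMC-like cells had 15.7, 34.02 and 55.1 CPM, so the classes overlapped. In airway SMC-like cells it had 0.14, 0.34 and 30.3 CPM and in adventitial fibroblast-like cells 0.18, 0.23 and 43.5 CPM, with nearly all counts from female mouse 1. Endothelial-like cells of female mouse 1 had 36.8 CPM, and 24.2% of them had a count, against 32.3% of alveolar myofibroblast-like and 27.5% of vascular SMC-like cells of the same mouse. The 8 endothelial markers summed to 38.9 CPM in airway SMC-like cells of female mouse 1, against 71.1 and 37.9 CPM in those of male mouse 1 and male mouse 2. Their part in the Trpm4 counts was not tested.

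Ano1 codes for anoctamin 1 (TMEM16A), a calcium-activated chloride channel of smooth muscle and of the interstitial cells of Cajal. Also on chromosome 7, minus strand, it runs from base 144588549 to 144751974. Its levels overlapped among the airway SMC-like, pericyte-like and vascular SMC-like classes and were low in the fibroblast-like classes, a pattern that neither P2rx1 nor Trpc6 shared. Its promoter window, at chr7:144738524-144738823 of GRCm38.p6 from RefSeq and given in the minus-strand direction, lies inside the GENCODE span of the gene and is shown as that of the gene common to the smooth muscle and pericyte-like classes; capitals mark TTCCCA, the RBPJ core read on the other strand.

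Ano1: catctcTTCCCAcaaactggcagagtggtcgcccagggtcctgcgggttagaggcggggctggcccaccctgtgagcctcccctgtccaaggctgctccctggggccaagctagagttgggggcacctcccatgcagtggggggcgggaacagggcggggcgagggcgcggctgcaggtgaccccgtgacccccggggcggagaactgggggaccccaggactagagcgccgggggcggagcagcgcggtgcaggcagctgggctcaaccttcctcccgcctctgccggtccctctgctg

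The Ano1 window held 1 RBPJ core, as the P2rx1 window did, and neither the TEAD motif nor a CArG box.

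In airway SMC-like cells Ano1 had 216.5, 251.4 and 209.8 CPM, and in pericyte-like cells 185.1, 172.4 and 231.5 CPM, against 156.8, 182.7 and 297.4 CPM in vascular SMC-like cells. The 3 ranges overlapped. The log2 fold changes against vascular SMC-like cells were 0.16 ± 0.69 for airway SMC-like cells (adjusted p = 0.999, edgeR) and -0.05 ± 0.70 for pericyte-like cells (adjusted p = 0.99, edgeR; 0.08 in log2 fold change with DESeq2 size factors). Taken as approximate, these errors leave room for changes of more than 1 log2 unit either way. In alveolar myofibroblast-like cells it had 0.63, 0.70 and 1.49 CPM, a log2 fold change of -7.83 ± 0.96 against vascular SMC-like cells (adjusted p = 0.000197, edgeR) that held without any 1 mouse. Alveolar myofibroblast-like and airway SMC-like cells, which overlapped in P2ry14, did not overlap in Ano1. In alveolar fibroblast-like cells Ano1 had 0.43, 16.5 and 8.71 CPM, a log2 fold change of -4.80 ± 0.83 against vascular SMC-like cells (adjusted p = 0.00222, edgeR; 0.12 without female mouse 1, the highest over all alternatives, which began at 2.85e-09). Pericyte-like cells were higher than alveolar fibroblast-like cells by 4.74 ± 0.83 on the log2 scale (adjusted p = 0.00327, edgeR), and the call was lost without female mouse 1 (adjusted p = 0.095) and when no other class entered the fit (0.10), within 1.93e-09 to 0.10 over all alternatives. Alveolar myofibroblast-like cells lay near alveolar fibroblast-like cells in 1 mouse and below them in the others, a log2 fold change of -3.03 ± 0.82 that missed the threshold (adjusted p = 0.075, edgeR; 0.00449 with DESeq2's Wald test and up to 0.69 over all alternatives).

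In single cells 58.9% of airway SMC-like cells, 58.1% of pericyte-like cells and 56.3% of vascular SMC-like cells had an Ano1 count, against 10.6% of macrophage-like cells. Within pericyte-like cells the Col8a1 cluster had 317.3, 573.4 and 302.6 CPM, against 30.98, 87.6 and 102.3 CPM in the Clstn2 cluster. The value of 573.4 CPM came from 2 cells. The clusters did not overlap. Of the 97 cells called pericyte-like in both clusterings, 37 had counts of both Trpc6 and Ano1.

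**Figure D4:**
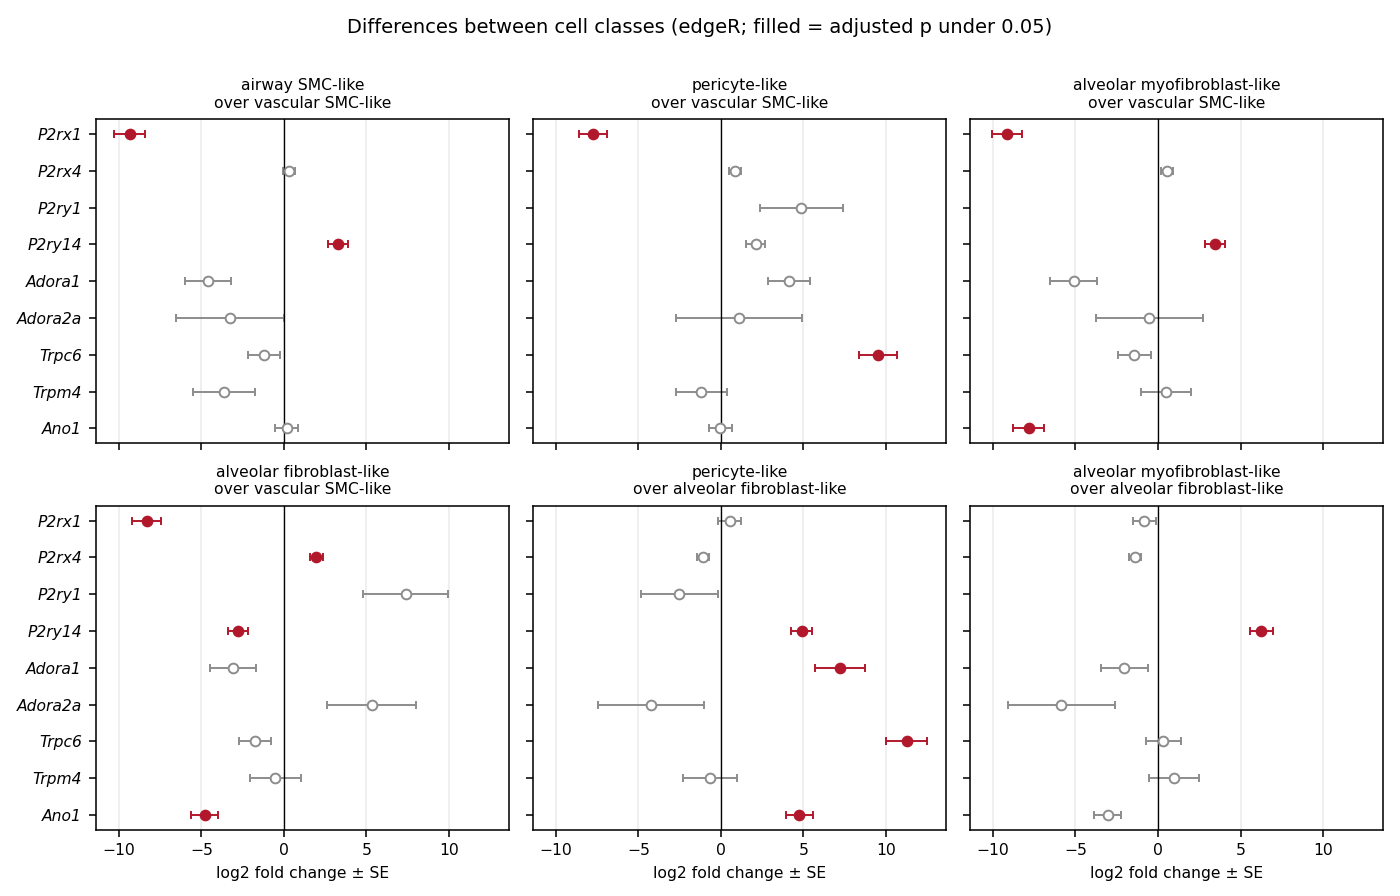
Log2 fold change ± SE of the 9 genes in the 6 comparisons of cell classes (edgeR); filled red points have an adjusted p under 0.05 and open grey points do not. P2ry1 is left out where a class had 3 counts or fewer. The widest differences shown are P2rx1, at -7.77 to -9.35 in the comparisons with vascular SMC-like cells, and Trpc6, at 9.50 and 11.3 in pericyte-like cells. Ano1, at -7.83 in alveolar myofibroblast-like over vascular SMC-like cells, lies within the span of P2rx1.

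Per kilobase of exon, the leading gene of the 9 differed by class. P2rx1 led in vascular SMC-like cells with 319.8 ± 58.7 CPM per kilobase, followed by Ano1 with 34.002 ± 11.99. P2ry14 led in airway SMC-like cells with 86.3 ± 23.1 and in alveolar myofibroblast-like cells with 97.99 ± 24.6 CPM per kilobase. In pericyte-like cells Trpc6 was followed by Adora1 with 44.6 ± 16.4, P2ry14 with 40.4 ± 20.7 and Ano1 with 31.4 ± 4.98 CPM per kilobase, whose ranges of mean ± SD overlapped. P2rx4 led in alveolar fibroblast-like cells with 22.7 ± 1.82 and in adventitial fibroblast-like cells with 21.0 ± 4.34 CPM per kilobase. Lengths are those of the merged exons in GENCODE M21.

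Genes with the most similar levels to each member were listed over the 18 sums of the 6 classes and 3 mice, by Pearson r of log2(CPM + 1). These sums share mice, plates and class definitions, so r is a description. For Trpc6 they were 9230104L09Rik, Tdgf1 and Higd1b (r = 0.997, 0.991 and 0.991), of which Higd1b is a pericyte marker used for naming. For P2rx1 they were Sost, Mylk4 and Susd5 (r = 0.974, 0.973 and 0.968). For Ano1 they were Kcnmb1, the beta-1 subunit of the large-conductance potassium channel, Smtn, which codes for smoothelin, and Mcam (r = 0.940, 0.927 and 0.911). For Adora1 they were Mybph, Ephx3 and Fam81a (r = 0.954, 0.935 and 0.922), where Mybph is the neighbour that shares exon bases with it. For P2rx4 they were Pcolce, C1ra and Svep1 (r = 0.927, 0.909 and 0.906). For P2ry14 they were Nt5e, Prkcq and Tceal3 (r = 0.881, 0.871 and 0.837), and Nt5e is the ectoenzyme that turns AMP into adenosine. The genes nearest to P2ry1 were Gm12924, Tnfsf8 and Mndal (r = 0.91, 0.90 and 0.85). Those nearest to Adora2a were Serpina3h, Batf3 and Gm9869 (r = 0.84, 0.82 and 0.80). Trpm4 was nearest to Gatad2b, ENSMUSG00000043858 and Ube4b (r = 0.83, 0.81 and 0.79).

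Of 16 other genes for adenosine receptors and nucleotide handling, 12 passed the filter on low counts. This list and those below were chosen with earlier results of these data known, so their calls are a description of the lists. In alveolar myofibroblast-like over vascular SMC-like cells 3 of the 12 were called, all higher, where 1.88% of all genes tested were called higher. The list had a median log2 fold change of -0.17, against -0.15 for all genes. Nt5e had 87.3 ± 57.1 CPM in alveolar myofibroblast-like cells and 1.07 ± 1.68 CPM in vascular SMC-like cells (log2 fold change 6.99 ± 1.31, adjusted p = 0.00619, edgeR). Enpp3 and Enpp1, ectonucleotide pyrophosphatases, were the others, with log2 fold changes of 5.99 and 2.67. The same genes, Nt5e and Enpp1, were the 2 higher calls in airway SMC-like over vascular SMC-like cells, where Nt5e had 112.3 ± 68.98 CPM. In that comparison 1.21% of all genes tested were called higher, and the list median was -0.02, against -0.18 for all genes. In alveolar myofibroblast-like over alveolar fibroblast-like cells 3 were called, all higher, namely Nt5e, Entpd1 and Enpp1, with a list median of 0.55 against -0.09 for all genes. The share of all genes tested that were called higher there was 0.839%.

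Entpd1 codes for CD39, which breaks down ATP and ADP at the cell surface. It had 50.7 ± 45.4 CPM in pericyte-like cells and 656.2 ± 178.8 CPM in vascular SMC-like cells (log2 fold change -3.91 ± 0.64, adjusted p = 0.00365, edgeR). In alveolar fibroblast-like cells it had 7.54 ± 6.46 CPM (log2 fold change -6.69 ± 0.73 against vascular SMC-like cells, adjusted p = 5.31e-05, edgeR). That was the 1 call of the list in this comparison, whose list median was -0.15 against -0.07 for all genes, and 2.39% of all genes were called lower. Pericyte-like over vascular SMC-like cells had 1 higher call (Nt5e) and 2 lower (Entpd1 and Enpp1), against 1.69% and 1.27% of all genes. The list median there was -1.56 against -0.22 for all genes. Pericyte-like over alveolar fibroblast-like cells had 2 higher (Nt5e and Entpd1) and 1 lower (Enpp1), against 1.76% and 2.94% of all genes. The list median there was -1.38 against -0.16 for all genes. The Entpd1 call between alveolar fibroblast-like and vascular SMC-like cells held without any 1 mouse, and its other 3 calls were lost without male mouse 1, with adjusted p of 0.090 to 0.20. The Entpd1 call between pericyte-like and alveolar fibroblast-like cells was also lost without female mouse 1 (adjusted p = 0.053, edgeR). Each Nt5e call was lost without male mouse 2, with adjusted p of 0.075 to 0.27, and all but that between pericyte-like and alveolar fibroblast-like cells were lost without female mouse 1. The Enpp1 and Enpp3 calls were lost without each of the mice.

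**Figure D5:**
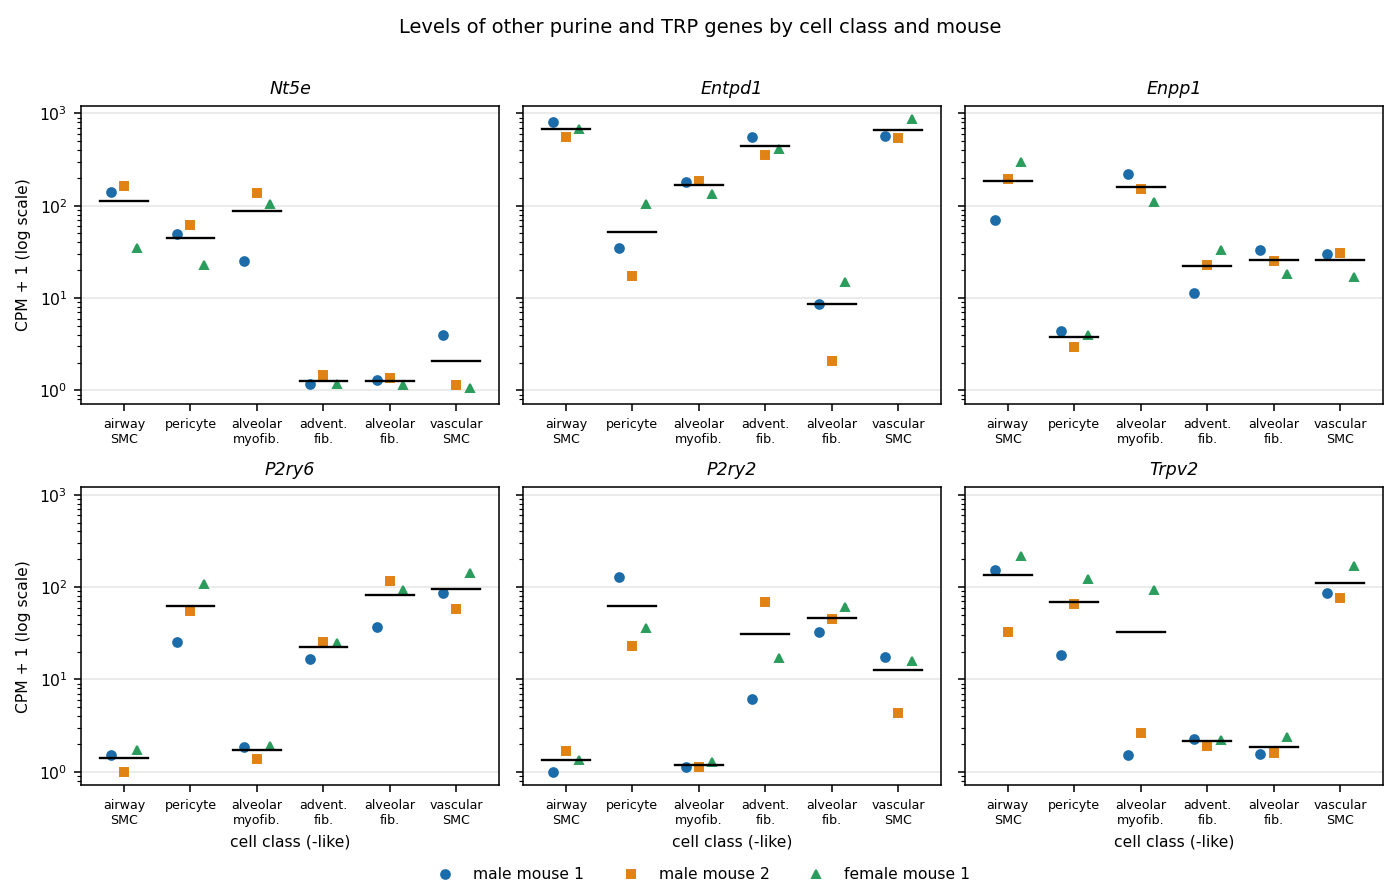
Level (CPM + 1, log axis) of 3 genes of nucleotide breakdown, 2 P2Y receptors and Trpv2 in 6 cell classes; each point is 1 mouse and the line is the mean. Nt5e averages 43.3 to 112.3 CPM in airway SMC-like, pericyte-like and alveolar myofibroblast-like cells and at most 1.07 CPM in the others, and P2ry6 averages 0.41 and 0.71 CPM in airway SMC-like and alveolar myofibroblast-like cells.

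Of 11 other P2 receptors, 6 passed the filter. Among all genes tested, 0.918% were called lower in airway SMC-like and 1.73% in alveolar myofibroblast-like over vascular SMC-like cells. The share called lower was 1.44% in alveolar myofibroblast-like and 2.94% in pericyte-like over alveolar fibroblast-like cells. P2ry6, the receptor of UDP, had 0.41 ± 0.37 CPM in airway SMC-like cells and 93.9 ± 41.97 CPM in vascular SMC-like cells (log2 fold change -7.59 ± 0.92, adjusted p = 0.000363, edgeR), and it was the only 1 of the 6 called there, beside a list median of -0.43 against -0.18 for all genes. Alveolar myofibroblast-like cells were lower than vascular SMC-like cells in P2ry6 and in P2ry2, an ATP and UTP receptor, with log2 fold changes of -6.98 and -6.10, beside a list median of -2.77 against -0.15 for all genes. Against alveolar fibroblast-like cells the same 2 genes were lower, with log2 fold changes of -6.81 for P2ry6 and -7.98 for P2ry2, beside a list median of -2.82 against -0.09 for all genes. The P2ry6 calls were lost without female mouse 1, with adjusted p of 0.060 to 0.081, and the P2ry2 calls were lost without each of the mice. P2rx6, another ATP-gated channel subunit, was lower in pericyte-like than in alveolar fibroblast-like cells (log2 fold change -6.76 ± 1.63, adjusted p = 0.0266, edgeR), a call also lost without each of the mice, and the list median there was 0.52 against -0.16 for all genes.

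Of 24 other TRP channel genes, 11 passed the filter and Trpv2, a cation channel, was the only 1 called. Trpv2 had 0.85 ± 0.47 CPM in alveolar fibroblast-like cells and 109.5 ± 50.6 CPM in vascular SMC-like cells (log2 fold change -7.06 ± 1.36, adjusted p = 0.00494, edgeR; 0.066 without male mouse 2). Pericyte-like cells, with 67.2 ± 51.6 CPM, were higher than alveolar fibroblast-like cells (log2 fold change 6.23 ± 1.32, adjusted p = 0.0123, edgeR; 0.13 without male mouse 2 and 0.060 without male mouse 1). The list median was -0.27 in the first comparison and 0.56 in the second, against -0.07 and -0.16 for all genes. Among all genes tested, 2.39% were called lower in the first and 1.76% higher in the second.

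Of 34 other chloride channels and transporters, 28 passed the filter and 5 calls were made over 3 comparisons. There were 2 in pericyte-like over vascular SMC-like cells, 2 in alveolar fibroblast-like over vascular SMC-like cells and 1 in pericyte-like over alveolar fibroblast-like cells, where 2.96%, 5.95% and 4.70% of all genes were called. By direction, 1.69% and 3.56% of all genes were called higher in the first 2 of these, and 2.94% were called lower in the last. Whether calls of 2, 2 and 1 among 28 genes differ from those shares was not tested. Lrrc8b and Lrrc8d, subunits of the volume-regulated anion channel, were higher in pericyte-like than in vascular SMC-like cells, at 103.5 ± 36.9 and 102.2 ± 81.996 CPM against 1.10 ± 1.42 and 3.93 ± 0.53 CPM (adjusted p = 0.0271 and 0.0165, edgeR). Ano5 and Lrrc8d were higher in alveolar fibroblast-like than in vascular SMC-like cells, and Best3 was lower in pericyte-like than in alveolar fibroblast-like cells. Each of these 5 calls was lost without each of the mice. The list median was 0.74 in pericyte-like over vascular SMC-like, 0.22 in alveolar fibroblast-like over vascular SMC-like and 0.45 in pericyte-like over alveolar fibroblast-like cells, against -0.22, -0.07 and -0.16 for all genes.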

How the data were processed

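Per the labels, single cells of mouse lung were sorted into plates and sequenced by Smart-Seq2. The authors deposited 1 table of raw read counts per gene and cell, with no normalization. GRCm38 (mm10) is the build per the submitters' processing notes, which also name featureCounts, Subread, Bowtie2, Bowtie and bcl2fastq without a role or version. The sources used here do not say whether counting used strand, so reads of overlapping genes cannot be told apart. The table holds 46517 genes, 46005 of them matched to a symbol in GENCODE M21, and 1376 cells with 50835 to 1074103 counts each. No cell name was shared between plates (0) and 0 pairs of cells had identical counts.

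The 9 genes, the gene lists and the markers were chosen with earlier results of these data known. Genes were split at random into 2 parts (seed 1). Cells were clustered on 1000 variable genes of one part (30 principal components, 15 neighbours, Leiden resolution 1) and genes of the other part were measured, then the parts were swapped. Doublets were not called, and no cell was removed. A cluster took the class with the highest mean scaled marker expression, with at least 3 markers each detected in 50% of its cells, a margin of 0.25 over the next class, and top 10 genes by fold (at least 16 CPM and 25% of cells) that held no more markers of another class. Clusters under 60% of their mice's median depth and led by none of their own markers stayed unnamed. These numeric limits were set after the clusters had been seen. A difference between classes may reflect these rebuilt names.

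The mouse was the replicate. Counts were summed per class and mouse (18 sums, at least 10 cells each) and tested with edgeR 4.0.16 (quasi-likelihood, TMM, filterByExpr, R 4.3.3) with the mouse as a block, two-sided, over 16336 genes with Benjamini-Hochberg adjustment at 0.05. The mice pair the sums by design. Deviations of sums of the same mouse from their class means correlated with a median r of 0.132 (0.039 to 0.313, 59 over 0.1). These are 90 values, each for a pair of classes in 1 mouse and 1 clustering, so every pair recurs. The code of the fit was run on simulated counts with a common spread for all genes and no effect of the mouse. That run does not measure the error of the fit on these data. Shares of cells with a count have exact (Clopper-Pearson) 95% intervals. Those intervals cover counting error only. Named genes were all 9 genes, at most 3 called genes per list and comparison by size of fold change, and the 3 genes of highest r to each. Alternatives were DESeq2 1.42.0 size factors and Wald test, no filter on low counts, each mouse left out, no block, only the compared classes in the fit, Leiden resolution 2, cells with at least 2000 genes and 100000 counts, and, added after seeing the data, the unnamed cluster with Osr2 and Chrdl1 among its leading genes counted as vascular SMC-like. Promoter sequences are from RefSeq (GRCm38.p6).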

Additional observations from a re-analysis of the deposited data

Results flagged for a closer look

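A pair of clusters that took no class name, with 19.6% and 19.3% of all cells in the clusterings on the separate gene sets, entered no comparison. Yet the first held more than 3 counts of each of the 9 genes and the second of 7 of them. The first, with Osr2 and Chrdl1 among its leading genes, came from all 3 mice. In the clustering behind P2rx1, P2ry14, Trpc6, Trpm4 and Ano1 its vascular SMC markers scored highest but by less than the margin of 0.25, and in the other clustering the leading list was mesothelial with 0 markers detected in 50% of its cells. P2rx1 averaged 148.5 CPM there (47.2 to 229.97 over the mice), below every vascular SMC-like value and above every value of the other 5 classes compared. Endothelial-like cells of male mouse 1, only 4 cells, had 150.9 CPM. P2ry14 averaged 298.8 CPM (182.4 to 368.8), above every vascular SMC-like value. Ano1 averaged 160 CPM (143.8 to 174.98), overlapping vascular SMC-like cells. Trpc6 averaged 20.01 CPM (5.38 to 29.5), above every class compared but pericyte-like cells, and Trpm4 averaged 45.6 CPM (21.7 to 59.6). Means with a wide spread over the mice were 80.34 ± 63.4 CPM for P2rx4, 28.52 ± 42.9 CPM for Adora2a, 12.99 ± 20.996 CPM for Adora1 and 4.707 ± 6.29 CPM for P2ry1 (SD, n = 3).

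The second cluster had 0.5 to 0.55 times the median depth of its mice and came mostly from male mouse 1, so its cells were summed and no SD is given. In one clustering its highest marker score was for macrophages, with 4 markers detected, and in the other for epithelium, with 0 detected. It held 180.6 CPM of P2rx1, 265.7 CPM of P2ry14, 76.19 CPM of Ano1 and 25.04 CPM of Trpm4. Adora1 stood at 12.21 CPM, P2rx4 at 11.97 CPM and Trpc6 at 0.6108 CPM. P2ry1 had 3 counts and Adora2a 1 count there. No class name and no comparison rests on these cells.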

How the results depend on the processing

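Of the 16 calls on the 9 genes, 11 held when male mouse 1 was left out, 13 when male mouse 2 was and 12 when female mouse 1 was, and 9 held in all of these fits. Comparisons below run in the order airway SMC-like, pericyte-like, alveolar myofibroblast-like and alveolar fibroblast-like over vascular SMC-like cells, then pericyte-like and alveolar myofibroblast-like over alveolar fibroblast-like cells. The share of all genes called was 2.13%, 2.96%, 3.61%, 5.95%, 4.70% and 2.28%. DESeq2's Wald test gave 6.33%, 10.82%, 10.25%, 10.75%, 12.56% and 7.958%, and no filter on low counts gave 1.032%, 1.479%, 1.824%, 2.931%, 2.24% and 1.168%. The mice pair the sums, and without the replicate block the share in the first comparison was 1.316%, with no call on the 9 genes changed there or in the other comparisons. With only the compared classes in the fit it was 1.091% in the second, 11.74% in the fourth and 2.14% in the fifth, where low genes left the test. Leaving out 1 mouse gave 0.4092% to 0.8062%, 0.3851% to 1.784%, 1.011% to 1.817%, 2.13% to 2.857%, 1.185% to 2.778% and 0.5717% to 1.006%.

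DESeq2 called 5 of the 9 genes in the second comparison and 4 in the sixth, and the stricter cell filter 2 in the sixth. Leaving out 1 mouse gave 1 to 2 calls in the first comparison, 2 to 3 in the fourth, 2 to 4 in the fifth and 1 to 2 in the sixth. The stricter cell filter left too few pericyte-like cells for the second and the fifth comparison, which were not run under it.

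None of the signs that turned belonged to a call, and the cause was not tested. For P2ry1 in the first comparison, with 2 and 9 counts, the fitted log2 fold change was -0.03143 with DESeq2, -0.7985 without the replicate block, -1.435 with the stricter cell filter, -2.731 with the Osr2 cluster added and -3.563 to 1.226 with 1 mouse left out. Adora2a gave -5.495 to 1.466 there with 1 mouse left out. In the second comparison it gave -1.121 with the Osr2 cluster added and -6.996 to 6.761 with 1 mouse left out. In the third it gave 2.352 without the replicate block, 1.829 with the stricter filter and -7.098 to 5.148 with 1 mouse left out. Ano1 in the second comparison gave 0.08094 with DESeq2 size factors, 0.08134 with DESeq2's Wald test, 0.2539 at Leiden resolution 2, 0.1205 with the Osr2 cluster added and -0.1455 to 0.142 with 1 mouse left out, and in the first -0.006836 to 0.4883. Trpm4 in the third gave -0.1433 with the stricter filter. With 1 mouse left out, Trpm4 gave -0.1062 to 0.8624 in the third and -2.369 to 0.9321 in the fifth comparison. P2rx1 gave -0.3588 to 2.433 in the fifth and -1.357 to 0.5941 in the sixth, where Adora1 gave -5.062 to 1.023 and Trpc6 -0.1025 to 1.009.

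Reads without molecular identifiers are not independent molecules. P2ry1 had counts in at most 10 cells of any class compared, so its levels rest on few cells, and Trpc6 had 9 to 74 counts in each class compared other than pericyte-like cells. With each cell scaled to the same total, 51 of 54 class levels moved by less than their SD.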
